A study of Mus musculus with 4 samples.

Results

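The 9 nuclear genes described here, Trmt10c, Hsd17b10, Elac2, Mto1, Gtpbp3, Trmu, Lrpprc, Slirp and Pnpt1, encode factors that cut, modify or protect mitochondrial tRNAs and mRNAs. They were taken by name from a list of such genes, drawn up with earlier results of these data known, and each matched 1 of the 32285 genes of the count tables. UMI counts per gene (counts of unique molecular identifiers, 1 per captured mRNA molecule) were measured by droplet 3' single-cell RNA sequencing in 4 libraries of small intestinal epithelial cells from 25-week-old mice. The cells had been stained for CD326, an epithelial surface protein, and for CD45, CD31 and TER-119, which mark blood and vessel cells, and sorted. Wild type 1 and mutant 1 form set A. Wild type 2 and mutant 2 form set B, whose titles state male mice. Both mutant libraries carry the point mutation TrnA G5081A in mitochondrial DNA, with a mutation load of 77% in mutant 1 and 81% in mutant 2. The labels name no other allele and no treatment, although the series title speaks of acute colitis, and they do not say how many mice gave each library, so the p-values cover the spread among these 4 libraries alone, 2 of each genotype.

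Mitochondrial DNA is transcribed into long RNAs in which tRNAs lie between the mRNAs and rRNAs, and cutting the tRNAs out frees the other RNAs. TRMT10C and HSD17B10 form the tRNA-binding part of mitochondrial RNase P, which cuts the 5' end of each tRNA and also methylates tRNA, and ELAC2 cuts the 3' end. MTO1 with GTPBP3, and TRMU, modify the wobble uridine of a subset of mitochondrial tRNAs, LRPPRC with its partner SLIRP binds and stabilises mitochondrial mRNAs, and PNPT1 is the polynucleotide phosphorylase of mitochondrial RNA decay. In the intestine, dividing crypt cells renew the epithelium and their daughters mature as they move up the villus.

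The mutated tRNA is shown first, because it is a substrate of the same machinery. It is the mitochondrial alanine tRNA gene mt-Ta (ENSMUSG00000064347), on the minus strand at chrM:5018-5086 of mm10, and is 69 bases long. The sequence is the GENCODE vM21 transcript, 5′ to 3′, and the capital marks the mutated base, which is position 6 counted from 1 at the tRNA's 5′ end. The genome change G5081A reads as C6T on the tRNA strand.
mt-Ta: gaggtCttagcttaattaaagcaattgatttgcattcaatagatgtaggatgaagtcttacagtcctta
The count tables hold 13 mtDNA-encoded genes, which are mRNAs, and no tRNA. The mutation itself was therefore not seen in these data, and the genotypes are as labelled.

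Slirp and Lrpprc encode proteins that work as a complex, and the ratio of their UMI counts differed between cell classes, so the 150 bases before their annotated starts are printed (RefSeq, GRCm38.p6, 5′ to 3′ on the gene's strand, at chr12:87443746-87443895 on the plus strand for Slirp and chr17:84790790-84790939 on the minus strand for Lrpprc). Capitals mark CCGGAAG or its reverse complement CTTCCGG, a core motif of ETS factors.
Slirp: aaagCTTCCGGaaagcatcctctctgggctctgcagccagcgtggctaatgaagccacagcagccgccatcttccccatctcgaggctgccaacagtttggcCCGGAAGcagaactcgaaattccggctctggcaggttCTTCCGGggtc
Lrpprc: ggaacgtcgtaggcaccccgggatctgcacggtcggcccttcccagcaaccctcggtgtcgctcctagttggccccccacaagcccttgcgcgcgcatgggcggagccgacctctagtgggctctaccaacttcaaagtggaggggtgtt
The Slirp stretch held 3 such motifs and the Lrpprc stretch 0. Across windows of 250 bases before to 50 after the start, the motif occurred on either strand in 3 of the 9 members (Trmt10c, Trmu and Slirp) and in 8.86% of 32851 promoters. CCAAT occurred in 5 of 9 (Hsd17b10, Elac2, Mto1, Gtpbp3 and Pnpt1) against 37.4% of promoters. The E-box CACGTG occurred in 0 of 9 against 7.15%. CACGTG reads the same on both strands, none of the 3 motifs contains another, and a match describes letters only.

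The 9 genes lie on 8 chromosomes, Elac2 and Pnpt1 both on chromosome 11 (mm10, GENCODE vM21). Trmt10c (ENSMUSG00000044763) spans chr16:56032609-56037819 on the minus strand and holds the small RNA gene Gm22422 on the same strand. Hsd17b10 (ENSMUSG00000025260) spans chrX:152001845-152004442, Trmu (ENSMUSG00000022386) spans chr15:85879312-85897394 and Pnpt1 (ENSMUSG00000020464) spans chr11:29130744-29161828, all on the plus strand and without an overlapping gene. Elac2 (ENSMUSG00000020549) at chr11:64979038-65002069, Mto1 (ENSMUSG00000032342) at chr9:78448208-78475348, Gtpbp3 (ENSMUSG00000007610) at chr8:71488103-71499583 and Slirp (ENSMUSG00000021040) at chr12:87443896-87452206 lie on the plus strand, and Lrpprc (ENSMUSG00000024120) at chr17:84705247-84790789 on the minus strand. These 5 overlap a gene on the opposite strand: Arhgap44 for Elac2, Gm17324 for Mto1, Plvap for Gtpbp3, AC165360.1 for Lrpprc, and Alkbh1 and Snw1 for Slirp. Whether the authors' counting used the strand is not given in the sources used here, so reads of such a pair may not be told apart.

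After filtering, the libraries held 4258, 10100, 7273 and 7605 epithelial cells (wild type 1, mutant 1, wild type 2, mutant 2) with 87084433 to 100828329 summed UMIs. The median UMI count per epithelial cell was 20654 in wild type 1 and 9485 to 10747 in the other libraries, so wild type 1 stood apart. Of 29387 cells kept, 285 had a barcode that occurs in more than 1 library. A lymphocyte-like cluster of 151 cells, with Ptprc (CD45) among its leading genes, was left out of the epithelial sums. In those sums Epcam, which encodes CD326, was at 2313 to 3363 CPM (UMIs of the gene per 1000000 UMIs) and Pecam1 (CD31) at 0.659 to 1.46 CPM. The summed level of 5 erythroid markers was 3.70 and 1.79 CPM in wild type 1 and 2 and 25.6 and 17.2 CPM in mutant 1 and 2. In the crypt cells defined below it was 4.26 and 2.10 CPM in wild type and 3.87 and 1.72 CPM in mutant libraries. In enterocytes it was 5.59 and 1.61 CPM in wild type 1 and 2 and 1.57 and 60.7 CPM in mutant 1 and 2. The part of these markers in the genotype results was not tested. Cells fell into 26 clusters, of which 20 could be named from markers, and the class names below mean clusters that resemble that type. Crypt cells are the stem-like and cycling-like clusters. In wild type 1 they came mainly from cluster 2 (1097 cells) and in mutant 1 from clusters 10 and 24 (2058 and 1569 cells). In set B they came from clusters 3, 11 and 25, with 1240, 770 and 100 cells in wild type 2 and 1295, 697 and 270 in mutant 2. Goblet cells were also split: cluster 5 held 1439 of 1976 in mutant 1 and 89, 30 and 24 in wild type 1, wild type 2 and mutant 2, where cluster 4 held 540, 558 and 569. Wild type 1 had only 42 Paneth-like cells and only 8 cells in the clusters named cycling-like. That 8 is a count by cluster name, not of dividing cells. In crypt cells 12 cycling markers together stood at 4185 CPM in wild type 1. They stood at 5452, 3932 and 4146 CPM in mutant 1, wild type 2 and mutant 2.

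All 9 genes were higher in crypt cells than in enterocytes in each of the 4 libraries. The fitted excess ran from 1.43-fold for Slirp to 3.32-fold for Trmt10c, and 9 of 9 passed an adjusted p of 0.05 with the library as a block (edgeR quasi-likelihood test, Benjamini-Hochberg adjustment over 14908 genes). In this comparison 79.6% of all genes tested passed, 42.4% in the direction of crypt cells and 37.2% in the direction of enterocytes. A single passing gene is thus common. The median difference was 1.20 on the log2 scale over the members and 0.11 over all genes tested. Its size depended on the clusters: without centring within libraries, where a Reg1-led cluster had no class name, the members' median was 1.86 and Trmt10c was at 2.79, with 9 of 9 again past the edgeR threshold. Clusters 15 (Reg1) and 13 (Slc5a12) gave 46.0% and 21.8% of the enterocyte UMIs in wild type 2 and 51.65% and 20.3% in mutant 2, against 19.7% and 28.95% in wild type 1 and 27.9% and 23.45% in mutant 1. For 8 of the 9 genes no crypt value overlapped an enterocyte value, where 34.3% of all genes tested lay wholly above in crypt cells. Levels are given per class and library as CPM scaled by TMM factors over all class sums. TMM (trimmed mean of M-values) corrects for a few genes taking a large share of a class, such as the defensin (Defa) genes, which took 47.6% to 55.4% of Paneth-like UMIs. Counts were summed over the cells of each class, so a higher share of expressing cells and more RNA per cell were not told apart here.

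Both RNase P subunits were lower in enterocytes, and Trmt10c had the largest fitted difference of the 9. Trmt10c, the tRNA methyltransferase subunit, was at 43.7, 45.3, 37.9 and 37.5 scaled CPM in crypt cells (wild type 1, mutant 1, wild type 2, mutant 2, the order used throughout) and at 8.82, 15.96, 14.2 and 13.5 in enterocytes. Every crypt value lay above every enterocyte value, by a fitted log2 difference of 1.73 ± 0.14 (SE, n = 4 libraries, edgeR adjusted p = 2.78e-06). Hsd17b10, a dehydrogenase that doubles as the structural partner of TRMT10C, was at 103, 90.4, 90.7 and 99.1 scaled CPM in crypt cells and 47.3, 48.0, 54.2 and 65.3 in enterocytes. Its groups did not overlap either, and the difference was 0.94 ± 0.10 (SE, edgeR adjusted p = 1.66e-05). Elac2, the 3' nuclease, was at 10.8, 9.90, 8.41 and 8.69 in crypt cells against 2.54, 4.11, 4.58 and 4.81 in enterocytes, a log2 difference of 1.26 ± 0.18 (SE, edgeR adjusted p = 0.000185). Its lowest value, in wild type 1 enterocytes, rested on 15 UMIs.

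The genes of wobble uridine modification were also higher in crypt cells. Mto1, which with GTPBP3 adds the taurine-linked group, was at 18.9, 16.7, 16.5 and 14.8 scaled CPM in crypt cells and 6.79, 6.58, 8.99 and 8.04 in enterocytes, a log2 difference of 1.20 ± 0.13 (SE, edgeR adjusted p = 2.09e-05). Gtpbp3, its GTP-binding partner, was at 11.2, 11.2, 5.73 and 7.50 in crypt cells and 4.58, 4.61, 3.41 and 4.61 in enterocytes, a difference of 1.07 ± 0.15 (SE, edgeR adjusted p = 0.000127). Both set A crypt values lay above both set B values. Trmu, which adds sulfur to the wobble base, was at 9.56, 9.51, 9.20 and 9.02 in crypt cells and 4.75, 5.92, 5.75 and 5.28 in enterocytes, a difference of 0.88 ± 0.12 (SE, edgeR adjusted p = 0.000138). In none of these 3 genes did crypt and enterocyte values overlap.

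Among the mRNA-stability genes, Lrpprc and Pnpt1 changed more than Slirp. Lrpprc, the mRNA-binding protein, was at 65.8, 68.7, 88.1 and 71.9 scaled CPM in crypt cells and 15.8, 26.3, 45.6 and 39.5 in enterocytes, a log2 difference of 1.37 ± 0.17 (SE, edgeR adjusted p = 5.21e-05). Slirp, the small RNA-binding protein held in complex with LRPPRC, was at 53.6, 55.6, 96.0 and 104 in crypt cells and 33.9, 40.8, 76.8 and 88.0 in enterocytes. The set B enterocytes were above the set A crypt cells, so the groups overlapped across sets, while within each library crypt cells were higher. The Slirp difference of 0.51 ± 0.09 (SE, edgeR adjusted p = 0.000536) was the smallest of the 9, and without the library block it was 0.46 with an edgeR adjusted p = 0.216. Pnpt1, the exoribonuclease, was at 43.2, 44.9, 42.7 and 40.6 in crypt cells and 14.6, 18.8, 20.0 and 19.8 in enterocytes, a difference of 1.32 ± 0.10 (SE, edgeR adjusted p = 2.08e-06).

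**Figure D1:**
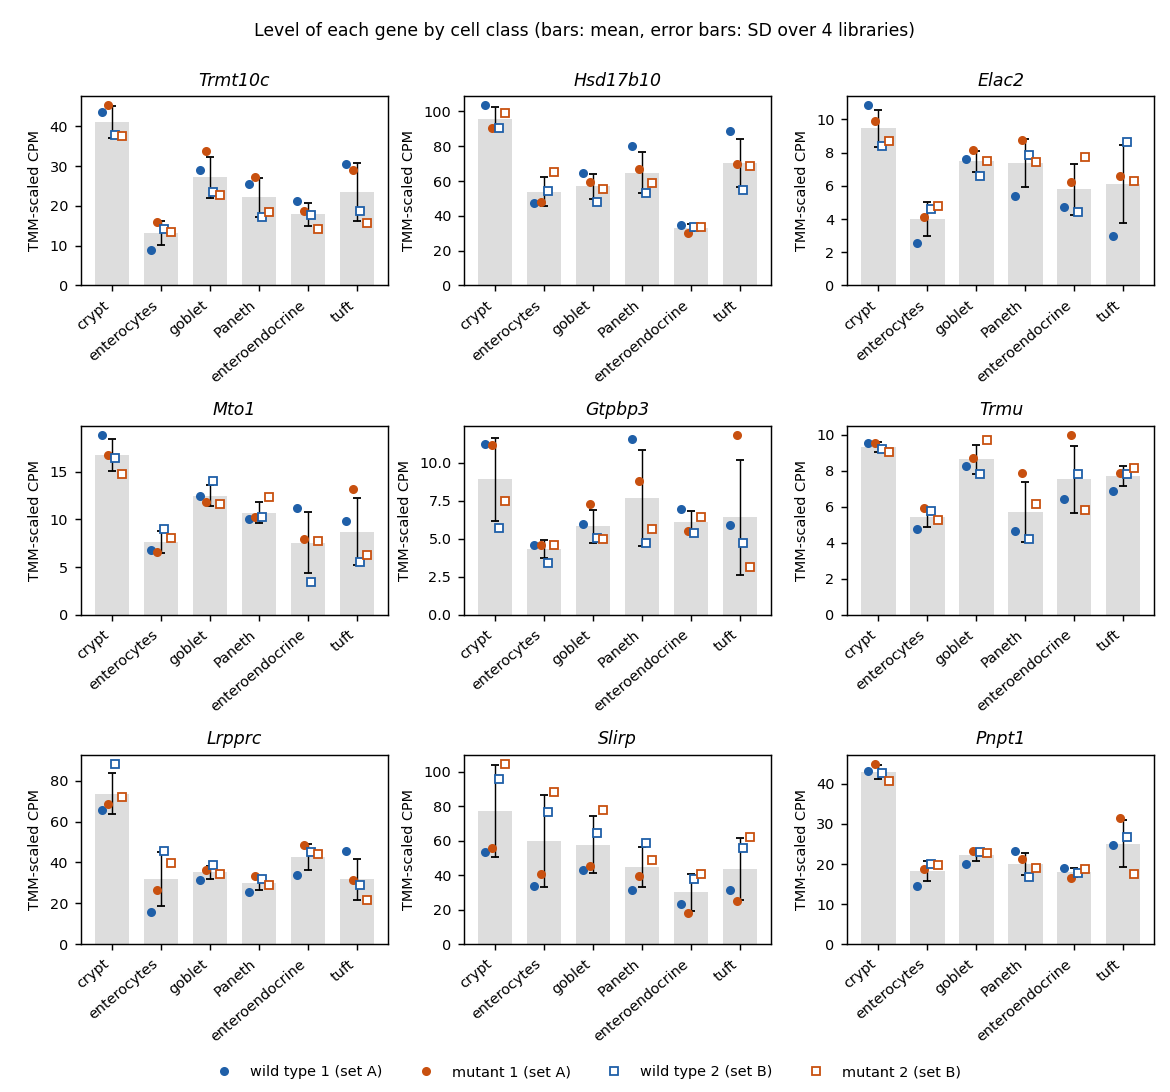
TMM-scaled CPM of each of the 9 genes in 6 cell classes. Points are the 4 libraries (blue wild type, orange mutant, filled circles set A, open squares set B), grey bars the mean and error bars the SD over the 4 libraries. For 8 of the 9 genes no crypt value overlaps an enterocyte value, the exception being Slirp, and the Slirp points split by set. Of all genes tested, 34.3% lay wholly above in crypt cells.

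Because the ratio of partner genes differed between the classes, it was computed in each library from the UMI counts. The number of Slirp UMIs per Lrpprc UMI was 0.814, 0.809, 1.09 and 1.45 in crypt cells and 2.15, 1.55, 1.69 and 2.23 in enterocytes. The ratio was thus higher in enterocytes in 4 of 4 libraries, by 0.90 ± 0.37 on the log2 scale (SD, n = 4). In set B it was not higher in every enterocyte cluster nor lower in every crypt cluster. In wild type 2 and mutant 2 it was 0.981 and 1.27 in stem-like cluster 3. Cycling-like clusters 11 and 25 were at 1.11 and 1.43 and at 3.23 and 3.51. Enterocyte-like clusters 15 and 16 were at 1.47 and 2.14 and at 3.85 and 4.82. Cluster 13, which held the most enterocytes and gave 43 to 93 UMIs per gene in these libraries, was at 0.768 and 0.968. In set A cluster 13 was at 2.11 (wild type 1) and 0.878 (mutant 1). The main stem-like clusters there, 2 and 10, were at 0.830 and 0.720. The number of Hsd17b10 UMIs per Trmt10c UMI was 2.37, 2.00, 2.40 and 2.64 in crypt cells and 5.37, 3.01, 3.81 and 4.83 in enterocytes, higher in 4 of 4 libraries by 0.83 ± 0.26 (SD, n = 4). In wild type 2 and mutant 2 this ratio was 2.66 and 2.73 in cluster 3 and 2.13 and 3.73 in cluster 13. It was 3.61 and 4.77 in cluster 15 and 12.25 and 5.56 in cluster 16, the last from 8 and 16 Trmt10c UMIs. In set A cluster 13 was at 4.09 (wild type 1) and 3.20 (mutant 1), against 2.36 and 2.16 in clusters 2 and 10. Cluster 13 gave 11 to 15 Trmt10c UMIs per library. Enterocytes were not the only class above crypt cells. In Paneth-like cluster 19 Slirp to Lrpprc was 1.24, 1.19, 1.86 and 1.69, and Hsd17b10 to Trmt10c was 3.15, 2.46, 3.09 and 3.18. The main goblet-like clusters (5 in mutant 1, otherwise 4) were at 1.46, 1.21, 1.68 and 2.29, and at 2.305, 1.76, 2.10 and 2.45. Tuft-like cluster 1 was at 0.696, 0.792, 1.92 and 2.91, and at 2.90, 2.41, 2.92 and 4.36. Enteroendocrine-like cluster 12 was at 0.705, 0.382, 0.909 and 1.02, and at 1.67, 1.54, 2.42 and 2.05. The two-sided exact paired permutation test gave p = 0.125 for each ratio, which is the smallest p that 4 pairs allow, so neither can pass 0.05. Both ratios were chosen after the values of their genes were seen. A ratio of UMIs between genes also depends on how well each mRNA is captured, so only its change between classes is read.

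**Figure D2:**
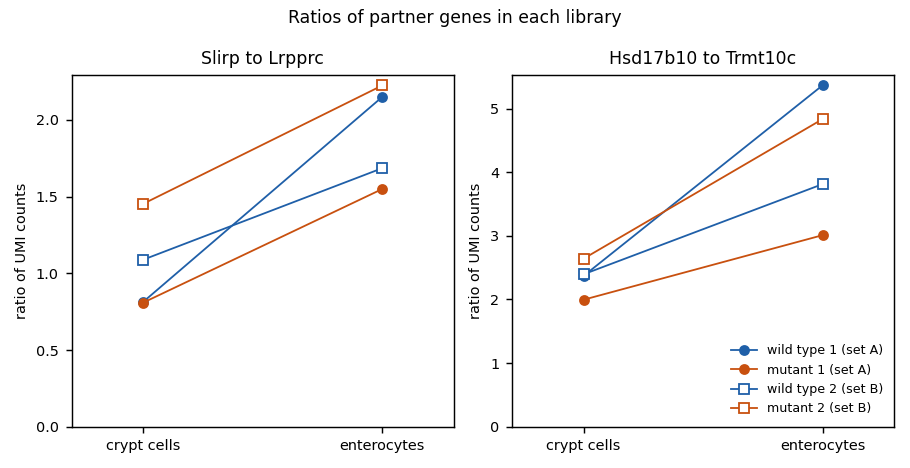
Ratio of UMI counts of Slirp to Lrpprc (left) and Hsd17b10 to Trmt10c (right) in crypt cells and enterocytes, with 1 line per library (blue wild type, orange mutant, filled circles set A, open squares set B). All 8 lines rise from crypt cells to enterocytes.

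Other cell classes lay between or beside these levels. Crypt cells had the highest mean level of all 6 classes for each of the 9 genes, and no share of all genes with that order is given here. The lowest mean was in enterocytes for Trmt10c, Elac2, Gtpbp3 and Trmu, in enteroendocrine cells for Hsd17b10, Mto1, Slirp and Pnpt1, and in Paneth cells for Lrpprc. For Hsd17b10 the mean fell from 95.9 ± 6.47 scaled CPM in crypt cells (SD, n = 4) to 33.1 ± 1.95 in enteroendocrine cells, which secrete hormones. Of the 45 pairs of neighbouring classes in these orders, 15 kept the order in all 4 libraries and 30 did not. The mean log2 difference was above its SD over libraries in 14 of those 15 and in 5 of those 30, and within it in the other 25 of those 30, which did not differ beyond the spread. The top step, from crypt cells to the next class, held in all 4 libraries for Trmt10c, Hsd17b10, Elac2, Mto1, Lrpprc, Slirp and Pnpt1, but not for Gtpbp3 and Trmu. For Trmu the mean order below crypt cells was goblet, tuft, enteroendocrine, Paneth and enterocytes, and none of its steps held in all 4 libraries. For Elac2 and Mto1 only the top step held, and for Pnpt1 likewise.

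The steps that did hold differed by gene. For Trmt10c the step from enteroendocrine cells to enterocytes also held in all 4 libraries, although its mean was within its SD, and those between goblet, tuft, Paneth and enteroendocrine cells did not. For Hsd17b10 the order crypt, tuft, Paneth and goblet held at each step, goblet cells and enterocytes did not differ beyond the spread, and enterocytes were above enteroendocrine cells. For Lrpprc the order crypt, enteroendocrine and goblet held, and the steps from goblet to tuft, enterocyte and Paneth cells did not. For Slirp the steps from crypt cells to enterocytes, from goblet to Paneth cells and from tuft to enteroendocrine cells held. For Gtpbp3 only the step from goblet cells to enterocytes held.

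Tests of crypt cells against the other classes were added after the data were seen. Against goblet cells, the mucus-secreting class, 8 of 9 members were higher, where 37.4% of genes passed in that direction. The excess was largest for Lrpprc (log2 difference 1.01 ± 0.07, SE), and Trmu was at 0.07 ± 0.10 with an edgeR adjusted p = 0.544. Against Paneth cells, the antimicrobial cells of the crypt base, 7 of 9 were higher, where 30.3% of genes passed. Elac2 and Gtpbp3 did not pass, at 0.20 ± 0.18 and 0.19 ± 0.17 (SE). Against enteroendocrine cells 9 of 9 were higher, where 36.3% of genes passed, led by Hsd17b10 at 1.67 ± 0.10 and Slirp at 1.51 ± 0.11 (SE). Against tuft cells, chemosensory cells with 39 to 121 cells per library, 6 of 9 were higher, where 23.8% of genes passed, and Elac2, Gtpbp3 and Trmu did not pass. No member was lower in crypt cells in any of these tests. Some of these calls were lost when 1 library was left out. The Elac2 call against goblet cells was lost without wild type 1 or without wild type 2 (edgeR adjusted p = 0.0939 and 0.0727). The Trmu call against Paneth cells was lost without wild type 2 (0.145) or mutant 2 (0.0529), and that against enteroendocrine cells without wild type 1 (0.239), wild type 2 (0.0915) or mutant 2 (0.162) and with another scaling (0.111). The Gtpbp3 call against enteroendocrine cells was lost without mutant 1 (0.0583), and the Hsd17b10 call against tuft cells without wild type 2 (0.137) or mutant 2 (0.0586), all in edgeR with Benjamini-Hochberg adjustment.

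Within the enterocyte class the level differed by cluster. The clusters are given in an order set by their leading genes after the data were seen: stem-like cluster 3 (Lgr5), the unnamed cluster 9 (Mgat4c, Fabp6 and Gsdmc4), and the enterocyte-like clusters 15 (Reg1 and Fabp1), 16 (Apoa1 and Fabp2), 13 (the sugar and peptide transporters Slc5a12, Slc2a2 and Slc15a1) and 17 (Nt5e and Ada). Values are plain CPM in set B, where each of these clusters held 218 to 1494 cells per library. Trmt10c was at 44.8, 36.1, 22.7, 2.40, 3.35 and 3.98 CPM along this order in wild type 2 and at 42.5, 31.5, 18.9, 4.87, 3.01 and 1.55 in mutant 2. It was lower at each of the first 3 steps in both libraries. Lrpprc followed with 108, 81.9, 72.7, 18.3, 12.5 and 7.97 CPM in wild type 2 and 85.8, 63.7, 52.0, 11.9, 18.6 and 0 in mutant 2. Slirp did not fall at the first step: it was at 106, 128, 107, 70.6, 9.59 and 8.96 CPM in wild type 2 and 109, 125, 111, 57.2, 18.0 and 20.2 in mutant 2.

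Depth per cell differed between these clusters, and its part in the result was not tested. Clusters 3, 9, 15 and 16 had median UMI counts per cell of 12107, 13936, 15234 and 12367 in wild type 2 and of 11360, 12192, 15836 and 13124 in mutant 2. Between clusters 3 and 16 Hsd17b10 went from 119 to 29.4 CPM in wild type 2 and from 116 to 27.1 in mutant 2, and Pnpt1 from 53.5 to 9.31 and from 47.7 to 7.91. Clusters 13 and 17 had medians of 2084 to 2866 UMIs in these libraries. In cluster 17 the 9 genes were at 0 to 8.96 CPM in wild type 2 and 0 to 20.2 in mutant 2. Cycling-like cluster 11 was close to stem-like cluster 3: Trmt10c was at 48.3 and 44.1 CPM and Pnpt1 at 51.1 and 48.6 CPM in wild type 2 and mutant 2. In the enterocyte sums, 10 stem markers together stood at 192 to 432 CPM, against 6470 to 7704 CPM in crypt cells.

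**Figure D3:**
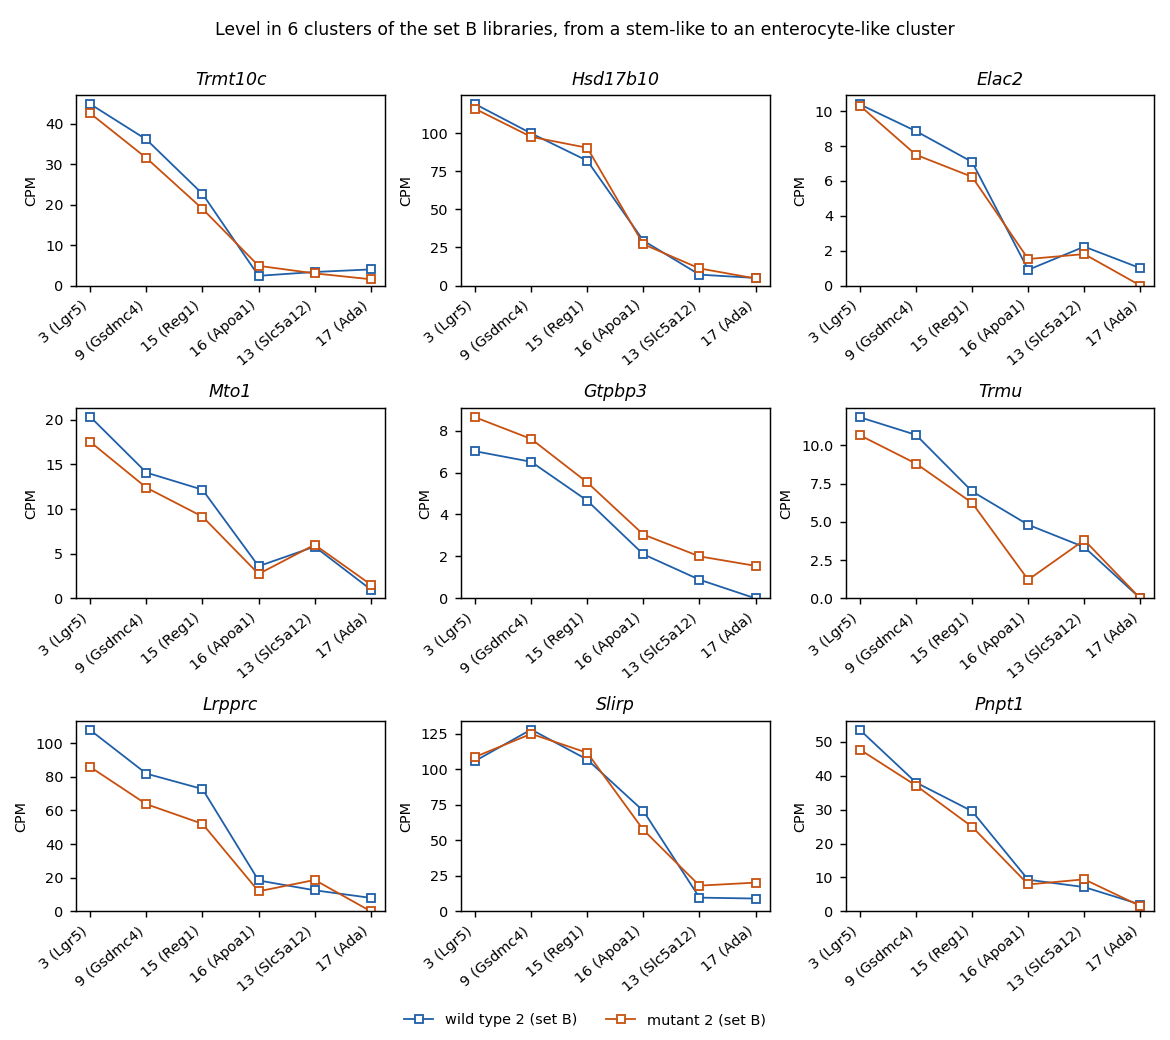
CPM of the 9 genes in 6 clusters of wild type 2 (blue) and mutant 2 (orange), named by cluster number and 1 of the cluster's 10 leading genes. The order of clusters follows their leading genes, not a measured time. All 9 genes are lower in clusters 16, 13 and 17 than in cluster 3 in both libraries, and Slirp is highest in cluster 9. No share of all genes with that direction is given, so it is not read as particular to the 9.

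Other genes of mitochondrial RNA metabolism mostly had the same direction. Of 50 such genes tested, 42 were higher and 6 lower in crypt cells than in enterocytes, with a median log2 difference of 1.14. At the tRNA ends, 2 of 3 were higher, Prorp (the nuclease subunit of RNase P) by 2.11 ± 0.12 (SE) and Trnt1 (which adds the CCA end) by 0.33 ± 0.08, and Ptcd1 was lower, at -0.40 ± 0.15. Among 16 tRNA modification genes 14 were higher: Qtrt1 and Qtrt2, the queuosine transferase subunits, led with 2.81 ± 0.15 and 2.44 ± 0.14 (SE), followed by Trmt1, Nsun2, Alkbh1, Trit1, Mettl8, Pus1, Trmt5, Yrdc, Osgepl1, Trmt61b, Nfs1 and Cdk5rap1. The other two were lower, Nsun3 at -0.81 ± 0.11 and Trmt2b at -0.27 ± 0.09. Several of these enzymes also act on tRNAs outside mitochondria.

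In the list for rRNA modification and maturation, 13 of 17 were higher, led by Mrm3 and Rcc1l at 2.56 ± 0.32 and 1.90 ± 0.15 (SE), with Mettl15, Tfb1m, Dhx30, Mrm2, Ddx28, Eral1, Ybey, Rpusd4, Mettl17, Mterf4 and Ngrn. Trub2 and Mrm1 were lower, at -0.80 ± 0.10 and -0.59 ± 0.15. In the list for mRNA stability, polyadenylation and decay, whose name need not be each gene's main role, 13 of 14 were higher. Fastkd2 and Rexo2 led at 2.03 ± 0.17 and 1.69 ± 0.10 (SE). The others were Fastkd3, Ptcd3, Tefm, Supv3l1, Grsf1, Fastkd1, Fastkd5, Ptcd2, Pde12, Mtpap and Tbrg4. Fastk was lower at -0.40 ± 0.10. All of these calls are edgeR adjusted p under 0.05 against the background shares given above.

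In the comparison with enterocytes, the mtDNA-encoded mRNAs went the other way. All 13 were lower in crypt cells than in enterocytes, by log2 differences from -1.62 ± 0.13 (SE) for mt-Co1 to -0.97 ± 0.13 for mt-Nd1, with a median of -1.12 and a highest edgeR adjusted p of 0.00116. They took 5.11%, 5.90%, 4.36% and 4.15% of crypt UMIs and 9.19%, 9.42%, 9.84% and 8.96% of enterocyte UMIs. Cells with 30% or more mitochondrial UMIs had been removed. Median UMIs per cell were 10999 to 25987 in crypt cells and 2112 to 4130 in enterocytes, and the part of this difference in depth in the result was not tested. Against the other classes the direction differed. Of the 13 mRNAs, 11 passed as higher in crypt cells against goblet cells, 13 against enteroendocrine cells and 4 against tuft cells. The shares of all genes were 37.4%, 36.3% and 23.8%. Against Paneth cells 0 passed as higher and 1 as lower, where 4302 and 4130 of 14186 genes did.

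No member passed the test between genotypes. In all epithelial cells together, 0 of 9 genes passed (edgeR, adjusted p = 0.9997), and 0.0% of the 16696 genes tested did. The fitted log2 differences, mutant minus wild type, ran from -0.14 ± 0.21 for Mto1 to 0.17 ± 0.40 for Gtpbp3 (SE, 2 libraries per genotype), with unadjusted p from 0.531 to 0.986 in the edgeR fit. The lowest and highest bounds of their 95% intervals, over the 9 genes, were -0.83 and 1.16. Interval width differed by gene, as the SEs of Mto1 and Gtpbp3 show. The size of change that could go undetected with 2 libraries per genotype therefore differed by gene too. At an unadjusted edgeR p under 0.05 there were 0 members and 108 of all genes, and DESeq2 passed 0 members and 6 genes. With the set as a block edgeR passed 21 genes, or 0.126%, and again 0 members.

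Within a set, the log2 ratio of mutant to wild type lay between -0.27 (Lrpprc, set B) and 0.32 (Gtpbp3, set B). Slirp was at 47.2 and 50.5 scaled CPM in wild type 1 and mutant 1 and at 78.1 and 84.7 in wild type 2 and mutant 2. Gtpbp3 was at 8.69 and 8.98 in set A and 4.54 and 5.65 in set B. Mto1 was lower in the mutant in both sets, at 14.6 and 13.1 in set A and 12.0 and 10.8 in set B, and the genotype ranges overlapped. Lrpprc was at 49.2 and 54.1 in set A and at 59.5 and 49.3 in set B. Of the 9 genes, 2 were higher and 2 lower in the mutant in both sets, and 5 went opposite ways. Genotype ranges overlapped for all 9, while 19.5% of all genes tested did not overlap.

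In crypt cells 0 of 9 members passed between genotypes, where 0.0% of 14365 genes passed and 96 had an unadjusted edgeR p under 0.05. The fitted log2 differences lay between -0.17 ± 0.17 for Mto1 and 0.14 ± 0.36 for Gtpbp3 (SE), and those of Trmt10c (0.02 ± 0.16), Trmu (-0.02 ± 0.18) and Pnpt1 (-0.01 ± 0.14) were nearest to 0. With the set as a block, 126 genes (0.877%) passed in crypt cells and 0 members, with Mto1 at -0.17 and an edgeR adjusted p = 0.879. DESeq2 passed 0 genes.

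In enterocytes 0 of 9 passed, where 0.0% of 12335 genes passed and 152 had an unadjusted edgeR p under 0.05. DESeq2 again passed 0 genes, and edgeR with the set as a block passed 0.073%, none of them a member. Fitted differences ran from -0.12 ± 0.30 for Mto1 to 0.33 ± 0.31 for Trmt10c (SE), and 8 of 9 were above 0. Trmt10c was at 8.82 and 15.96 scaled CPM in wild type 1 and mutant 1 and at 14.2 and 13.5 in wild type 2 and mutant 2. The lowest value, in wild type 1, came from 52 UMIs, and without that library the median over the 9 genes was -0.04 in place of 0.16. A test of whether the genotype difference itself differed between crypt cells and enterocytes, added after the data were seen, passed 0 members and 0.0% of 14908 genes in edgeR, with 206 genes and 0 members at an unadjusted p under 0.05. Its 9 estimates lay between -0.33 ± 0.33 (Lrpprc) and -0.04 ± 0.34 (Gtpbp3) (SE).

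The secretory and tuft classes gave the same count. In goblet, Paneth and enteroendocrine cells 0 of 9 members passed (0.0% of 12745, 10901 and 10923 genes), and in tuft cells 0 of the 6 members with enough counts (0.0% of 8483 genes), where Elac2, Gtpbp3 and Trmu were not tested. At an unadjusted edgeR p under 0.05 there were 0 members in each and 265, 90, 225 and 60 genes, and DESeq2 passed 0 genes in each. With the set as a block the shares that passed were 0.0% in goblet cells, 0.00917% in Paneth cells, 0.531% in enteroendocrine cells and 0.0% in tuft cells, with 0 members. Genotype values did not overlap for 0 of 9 members in crypt cells (21.2% of genes tested), 1 in enterocytes (27.6%), 2 in goblet cells (24.6%), 2 in Paneth cells (24.1%), 2 in enteroendocrine cells (27.2%) and 1 in tuft cells (23.3%), which was Trmu, not tested there. These shares of the members are below or near those of all genes. The largest fitted values were Trmu in Paneth cells, at 0.70 ± 0.44 (SE), and Elac2 in enteroendocrine cells, at 0.58 ± 0.48 (SE). Trmu in Paneth cells was at 4.63 and 4.19 scaled CPM in wild type 1 and 2 and at 7.87 and 6.16 in mutant 1 and 2, from 6, 16, 26 and 24 UMIs, and these groups did not overlap.

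**Figure D4:**
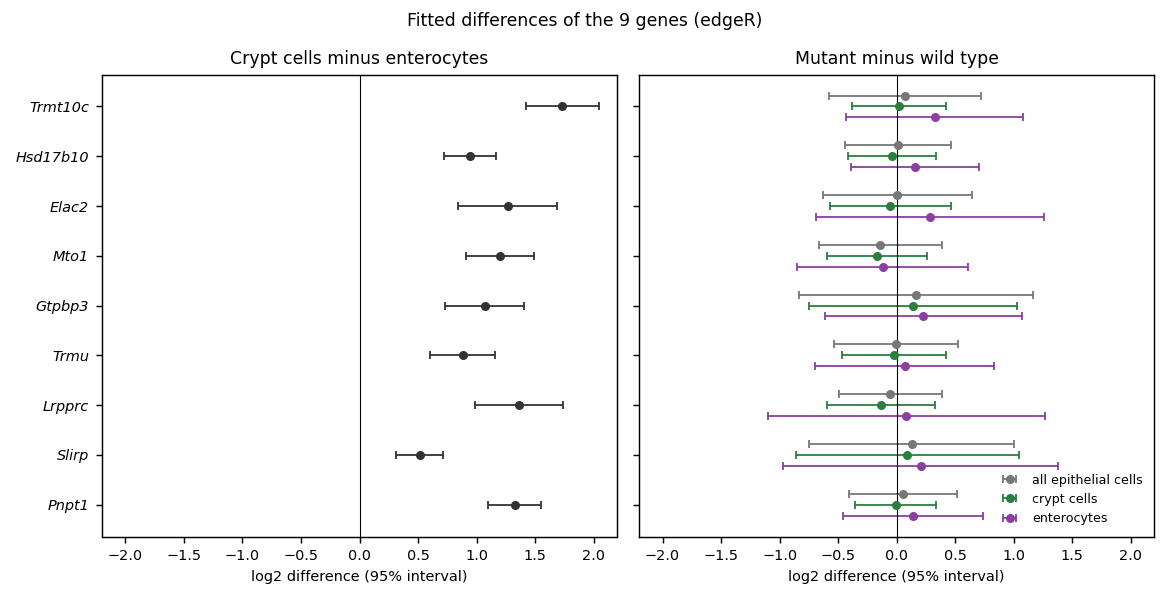
Fitted log2 differences (edgeR) of the 9 genes with 95% intervals, crypt cells minus enterocytes on the left and mutant minus wild type on the right (grey all epithelial cells, green crypt cells, purple enterocytes). All 9 intervals on the left lie above 0, from 0.31 upward, and all 27 on the right include 0.

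Of the other genes of mitochondrial RNA metabolism, 0 of 50 passed between genotypes in all epithelial cells, with a median log2 difference of 0.03. The smallest p-values were those of Pus1 (0.30 ± 0.19, SE), Qtrt1 (0.29 ± 0.24), Cdk5rap1 (0.32 ± 0.31) and Alkbh1 (-0.12 ± 0.16) for tRNA modification, and of Fastk (0.30 ± 0.22), Fastkd5 (-0.28 ± 0.27), Ptcd2 (-0.10 ± 0.18) and Fastkd3 (0.16 ± 0.34) for mRNA stability. In the rRNA list they were those of Ngrn (0.18 ± 0.16), Mettl15 (0.22 ± 0.20), Eral1 (0.47 ± 0.43) and Trub2 (0.13 ± 0.22), and at the tRNA ends Ptcd1, Trnt1 and Prorp were at -0.17 ± 0.33, -0.08 ± 0.22 and 0.06 ± 0.17 (SE). Of the 13 mtDNA-encoded mRNAs 0 passed, and mt-Cytb (0.45 ± 0.23), mt-Nd1 (0.37 ± 0.24), mt-Nd3 (0.49 ± 0.33) and mt-Co2 (0.25 ± 0.21) had the smallest p-values, in the same edgeR fit with n = 2 libraries per genotype.

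The sets differed in 3 members. In all epithelial cells Slirp was lower in set A than in set B by a log2 difference of -0.73 ± 0.12 (SE, edgeR adjusted p = 0.00271, genotype as a term), and Gtpbp3 and Trmt10c were higher in set A, by 0.81 ± 0.17 (adjusted p = 0.00813) and 0.48 ± 0.13 (adjusted p = 0.0237). In that comparison 18.4% of genes passed, 8.72% higher and 9.67% lower in set A. In crypt cells alone Slirp was at -0.90 ± 0.12 and Gtpbp3 at 0.75 ± 0.16 (SE), both past the edgeR threshold together with 24.0% of genes, while Trmt10c was at 0.22 ± 0.12 with an edgeR adjusted p = 0.193. Set A was counted with Cell Ranger 7.0.0 and set B with 7.1.0 per the file headers, only the titles of set B state male mice, and these 2 differences cannot be told apart. Cell mix differed too: enterocytes were 22.2% and 12.4% of epithelial cells in set A and 40.1% and 41.0% in set B (wild type, mutant), and 21 enterocyte markers together stood at 5237 and 4574 CPM against 10878 and 12443 CPM. Their part in the difference over all epithelial cells was not tested. The set test was added after the data were seen.

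The genes most like each member were found by Pearson correlation of log2(CPM + 1) over 24 sums, 4 libraries by 6 classes. The search covered 6533 genes with a mean of at least 20 CPM. Here stem-like cells alone took the place of crypt cells, because wild type 1 had too few cycling-like cells. The sums share libraries, depth and the dilution by defensins in Paneth cells, so these values only describe. Trmt10c was most like the ribosomal protein genes Rpl4, Rpl3 and Rpl14 (r = 0.988, 0.986 and 0.986), and Hsd17b10 most like Park7, Pstk and Tomm40 (0.983, 0.977 and 0.970). Elac2 was most like Denr, Dgcr2 and Fam120c (0.931, 0.926 and 0.925), Mto1 most like Timm21, Hnrnpdl and Isy1 (0.947, 0.936 and 0.929), and Gtpbp3 most like Magohb, Polr2m and Strap (0.948, 0.938 and 0.934). Trmu was most like Ddx47, Hnrnpul1 and Hnrnph2 (0.974, 0.972 and 0.969), and Pnpt1 most like Fcf1, Eif3e and Snrpa (0.980, 0.980 and 0.980). Lrpprc was most like Got2, Kpna3 and Arl6ip6 (0.962, 0.957 and 0.955), and Slirp most like Naa38, Ndufa7 and Zfp106 (0.978, 0.965 and 0.964).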

How the data were processed

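The deposited files hold UMI counts per gene and cell barcode, which the authors made with Cell Ranger (7.0.0 for set A, 7.1.0 for the other, per the file headers); the submitters' processing notes name mm10. The counting of introns and strand is not given in the sources used here. No column was left unmapped (0 columns). A barcode needed 500 genes, 1000 UMIs and a mitochondrial share below 30%. Doublets were called with scrublet in scanpy 1.11.5, at 0.8% per 1000 barcodes. Cells were clustered on 2000 variable genes, without the members, the other listed genes, mitochondrial, ribosomal and sex-linked genes, centred within each library (50 principal components, 15 neighbours, Leiden with igraph 0.11.9, resolution 1). A cluster was named from at least 3 markers among its 50 leading genes. Lymphocyte-like clusters were left out. Raw counts were summed per library and class (at least 30 cells in each library) and tested with edgeR 4.0.16 (quasi-likelihood, TMM, filterByExpr, Benjamini-Hochberg) in R 4.3.3, wild type against mutant with 2 libraries each and, between classes, with the library as a block. DESeq2 1.42.0 was an alternative. The fits were run on counts simulated with the same dispersion for every gene and no difference between sets. That run does not show how the fits behave on these libraries. Intervals are 95% and cover the spread between libraries. Genes were named by this rule: all 9 members, other listed genes past an adjusted p of 0.05 or else the 4 with the smallest p per list, and the 3 genes most like each member. The members and lists were chosen with earlier results of these data known. Tests added after the data were seen are named as such. Gene positions came from GENCODE vM21.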

Additional observations from a re-analysis of the deposited data

Results flagged for a closer look

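For 5 of the 9 genes the log2 ratio of mutant to wild type in all epithelial cells had opposite signs in the 2 sets, each of which holds 1 library per genotype, so the difference between sets was not tested. The ratio in set A minus that in set B was 0.19 for Trmt10c (0.13 and -0.06), -0.27 for Hsd17b10 (-0.13 and 0.13), -0.03 for Elac2 (-0.03 and 0.00), 0.41 for Lrpprc (0.14 and -0.27) and 0.22 for Pnpt1 (0.14 and -0.08).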

How the results depend on the processing

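The crypt against enterocyte comparison passed 9 of 9 members in each of the 13 other settings with the library as a block and 8 of 9 with no replicate block, where Slirp was lost. Their median log2 difference ran from 1.07 (without wild type 1) to 1.86 (clusters without centring within libraries). Between genotypes 0 members passed in any setting run, the replicate block for the set included. A tuft fit under 15% mitochondrial UMIs was not run because a library had fewer than 30 cells. The labels give no replicate numbers, so the block pairs the libraries by set. The number of all genes passing, 0 in the main fits, was 21 with the replicate block, 6 with DESeq2 and 29 with DESeq2 and the block in all epithelial cells, 126 and 27 (block, DESeq2 with block) in crypt cells, 9 and 4 in enterocytes, 58 and 4 in enteroendocrine cells, 1 with the block in Paneth cells and 3 with DESeq2 and the block in goblet cells. Without a filter on low counts it was 16 in enterocytes, 91 in goblet, 8 in Paneth and 31 in enteroendocrine cells. Leaving out 1 library gave 0 to 3 genes in enterocytes, 0 to 233 in goblet cells (233 without mutant 2), 0 to 74 in enteroendocrine cells (74 without wild type 2, 64 without wild type 1) and 0 to 2 in tuft cells, and the genotype left with 1 library is then assumed to vary like the other. The cause was not tested.

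Genotype differences of single genes, none past the threshold, changed sign as follows (log2). In all epithelial cells Elac2 was at -0.041 with no doublets removed and Trmu at 0.0004 in DESeq2. In crypt cells Trmt10c was at -0.016 with no doublets removed and -0.027 in the stem-like class alone, and Pnpt1 at 0.010 without the filter and 0.0027 with clusters without centring. In enterocytes that clustering gave -0.17 for Hsd17b10, -0.079 for Trmu and -0.048 for Slirp, and Trmu was at -0.054 under 50% mitochondrial UMIs and -0.023 with no doublets removed. Leaving out each library in turn gave these ranges in all epithelial cells: Trmt10c -0.25 to 0.33, Hsd17b10 -0.13 to 0.19, Elac2 -0.20 to 0.23, Mto1 -0.29 to 0.015, Gtpbp3 -0.22 to 0.71, Trmu -0.14 to 0.12, Lrpprc -0.18 to 0.10, Slirp -0.29 to 0.55, Pnpt1 -0.12 to 0.22. In crypt cells they were Trmt10c -0.11 to 0.14, Hsd17b10 -0.11 to 0.052, Elac2 -0.20 to 0.13, Gtpbp3 -0.25 to 0.69, Trmu -0.052 to 0.0099, Lrpprc -0.34 to 0.11, Slirp -0.44 to 0.60, Pnpt1 -0.075 to 0.055. In enterocytes they were Hsd17b10 -0.066 to 0.34, Elac2 -0.020 to 0.82, Mto1 -0.28 to 0.12, Trmu -0.043 to 0.23, Lrpprc -0.45 to 1.08, Slirp -0.43 to 0.94, Pnpt1 -0.047 to 0.41. Low counts limit Elac2, Gtpbp3, Mto1 and Trmu, which had 15 to 40 UMIs each in the set A enterocytes and 3 to 13 in tuft cells.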

Other observations

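Each library held a cluster without a class name that had Gsdmc4 and Akr1c19 among its 10 leading genes: cluster 8 in wild type 1 (816 cells) and cluster 21 in mutant 1 (2470 cells), both led by Gsdmc4, and cluster 9 in set B (635 and 803 cells), led by Mgat4c. Slirp was higher in this cluster than in the library's main stem-like cluster in 4 of 4 libraries, at 74.3 against 69.0 CPM in wild type 1, 74.6 against 62.3 in mutant 1, 128 against 106 in wild type 2 and 125 against 109 in mutant 2. The other 8 members were lower there in 4 of 4 libraries. No share of all genes with that direction is given here, so the count is not read as particular to the members. Lrpprc was at 74.7 against 83.2 CPM in wild type 1, 73.6 against 86.6 in mutant 1, 81.9 against 108 in wild type 2 and 63.7 against 85.8 in mutant 2. Mto1 was at 19.7 against 24.0 CPM in wild type 1, 15.4 against 20.4 in mutant 1, 14.1 against 20.3 in wild type 2 and 12.4 against 17.5 in mutant 2. The clusters were chosen after the values were seen, and no test was run.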
